A study of Homo sapiens with 18 samples.

Results

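The 8 receptor tyrosine kinases of the ERBB and FGFR families were followed across 2 breast cancer cell lines, before and after treatment with a CDK4/6 inhibitor. They are EGFR, ERBB2, ERBB3 and ERBB4 of the ERBB family and FGFR1, FGFR2, FGFR3 and FGFR4 of the FGFR family, taken by name from the 60656 gene rows of the count table. Transcripts were counted from their 3′ ends in 18 RNA-seq libraries, 3 for each of 6 groups. The groups are parental CAMA-1 and ZR-75-1 cells, both oestrogen receptor-positive breast cancer lines labelled wild-type, given DMSO, abemaciclib at 500 nM or palbociclib at 500 nM for 5 days. All groups grew in the same medium with serum, and DMSO was the solvent control. The study's methods describe the replicates as independent cultures, whereas the labels give only replicate numbers.

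ERBB receptors sit at the cell surface and signal when they pair after binding ligands of the EGF and neuregulin families. ERBB2 has no known ligand and ERBB3 has little kinase activity, so these 2 act mainly through their partners. FGF receptors bind fibroblast growth factors together with heparan sulphate chains. Both families feed the RAS–MAPK and PI3K–AKT cascades, and they are known as bypass receptors through which hormone receptor-positive breast cancer cells can keep dividing despite CDK4/6 inhibition. The question here was which of them each line transcribes at baseline and how that changed with each inhibitor.

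Library totals ran from 2308442 to 4146549 counts, with 14881 to 16563 genes detected in each, and pairs of replicates had a Pearson's r of 0.984 to 0.989 across genes. All 7 luminal markers that were checked, ESR1 and GATA3 among them, had a mean of at least 10 counts in every group, whereas KRT5 of basal cells, COL1A2, PDGFRB and DCN of stroma and CD3E of blood were at 0 in all 18 libraries. Of the other stromal markers COL1A1 had 26 to 108 counts in every library, and COL3A1 had 2, 5 and 6 counts in CAMA-1 DMSO, 24, 20 and 12 with abemaciclib, 18, 21 and 20 with palbociclib and 0 in ZR-75-1. The summed level of the 5 stromal markers was 15.45 to 32.74 CPM, and its part in the receptor results was not tested. Of the other basal markers KRT17 had 1, 1 and 0 counts in CAMA-1 DMSO and 9, 2 and 7 with abemaciclib, its highest group. KRT14 and TP63 had at most 3 counts in any library. Of the other blood markers PTPRC had at most 3 counts, and CD68 and HBB at most 1. In RNA from whole cultures, fewer cells of a type and less RNA per cell cannot be told apart. Mitochondrially encoded genes took 14.8% to 16.6% of the counts in the CAMA-1 DMSO libraries, 23.4% to 26.1% with abemaciclib and 22.9% to 24.9% with palbociclib. In ZR-75-1 that share was 17.3% to 22.6%, 18.5% to 20.5% and 18.5% to 19.8%. Leaving these genes out before scaling changed no call on a receptor. Levels below are counts scaled to library size (CPM) with TMM factors over all 18 libraries, and fold changes are log2 values from edgeR, called at an adjusted p under 0.05.

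CAMA-1 and ZR-75-1 started from different receptor repertoires. In CAMA-1 cells given DMSO, FGFR4 was the most abundant of the 8 transcripts on the CPM scale, with 197.7, 194 and 204 CPM. ERBB3 followed with 141, 156.5 and 166.5 CPM, then ERBB2 with 77.0, 68.8 and 71.2 CPM, ERBB4 with 36.6, 32.7 and 29.3 CPM and FGFR1 with 13.7, 22.0 and 16.5 CPM. None of these neighbours in the order overlapped. FGFR3 lay at 0.955, 1.00 and 1.83 CPM, FGFR2 had 0, 1 and 1 counts, and EGFR had no count in any of the 9 CAMA-1 libraries, where a floor of 3 counts per library stands for 0.7235 to 1.30 CPM over the 18 libraries before TMM scaling. With the drugs, FGFR2 in this line had 9, 3 and 0 counts for abemaciclib and 3, 5 and 0 for palbociclib, and FGFR3 had 7, 5 and 15 and then 7, 6 and 4. Neither passed the filter on low counts in CAMA-1.

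ZR-75-1 cells given DMSO were led by ERBB3, with 170, 155 and 157 CPM. ERBB2 came next with 88.1, 100.5 and 79.8 CPM, followed by FGFR4 with 61.6, 56.8 and 65.4 CPM and FGFR1 with 52.2, 45.2 and 52.3 CPM. ERBB4, with 12.7, 16.2 and 21.3 CPM, and FGFR3, with 8.15, 12.8 and 12.7 CPM, overlapped and could not be placed. EGFR had 9, 14 and 3 counts and FGFR2 had 4, 4 and 9, so both were detected at a low level. Dividing CPM by exon length, which 3′-end counting does not call for, left all 8 places in CAMA-1 DMSO and moved FGFR4 to second place in ZR-75-1, at 12.8 CPM per kb beside 13.4 for ERBB3 and 8.53 for ERBB2.

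**Figure D1:**
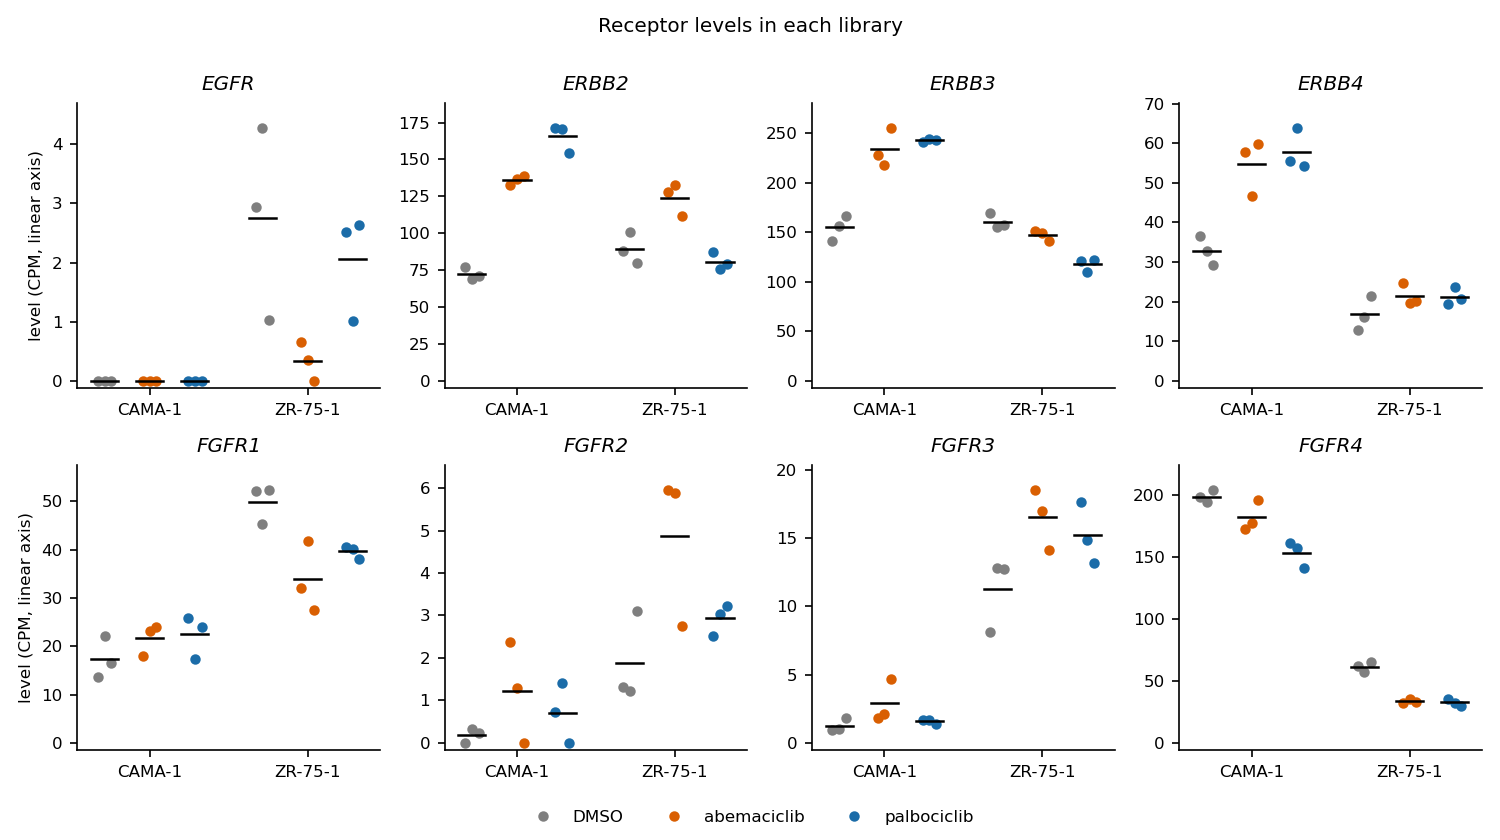
Normalized level of each receptor in each of the 18 libraries. The vertical axes give CPM on a linear scale that differs between panels, points are libraries coloured by treatment, and bars are group means (n = 3). FGFR4 in CAMA-1 sat between 141 and 204 CPM, above every ZR-75-1 library at 29.6 to 65.4 CPM, and EGFR was at 0 in every CAMA-1 library.

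Between the DMSO groups, 5 of the 6 receptors that could be tested differed between the lines. FGFR1 was higher in ZR-75-1 by 1.53 on the log2 scale (SE 0.172, adjusted p = 1.2e-11) and ERBB2 by 0.31 (SE 0.102, adjusted p = 0.0067). FGFR3 was higher by a fitted 3.05 (SE 0.401, adjusted p = 1.3e-09), with 25, 42 and 37 counts beside 3, 3 and 8 in CAMA-1. It entered this fit through ZR-75-1, where it is high, and fell below the filter on low counts in CAMA-1 alone. Its p-value is therefore no independent support, and the size of its difference depends on few counts. FGFR4 was lower in ZR-75-1, with a log2 difference of −1.70 (SE 0.0954, adjusted p = 3.7e-24), and so was ERBB4, at −0.97 (SE 0.173, adjusted p = 2.2e-06). ERBB3 did not pass the test, with a difference of 0.05 and a 95% interval of −0.12 to 0.22. Of all 11987 genes tested, 31.5% were higher and 29.8% lower in ZR-75-1, so a difference between the lines was itself common. The ERBB2 difference was small, and it was lost without CAMA-1 DMSO replicate 2 (0.23, adjusted p = 0.084) or without ZR-75-1 DMSO replicate 2 (0.16, adjusted p = 0.21). By group means, EGFR in ZR-75-1 was 3.12-fold and FGFR2 2.13-fold above a floor of 3 counts per library in CAMA-1. Single ZR-75-1 DMSO libraries had as few as 3 counts of EGFR and 4 of FGFR2. Both fell below the filter on low counts.

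Genes on either side of the receptors were read in the same DMSO libraries, as the 3 nearest protein-coding genes on each side that do not overlap the receptor. Genes that overlap a receptor's 3′ end are given further below. All 5 tested neighbours of FGFR4 (chromosome 5, 177086905 to 177098144, plus strand, GRCh38) were also lower in ZR-75-1. ZNF346, which lies 5.7 kb away, had 74.4 ± 10.8 CPM in CAMA-1 and 33.9 ± 3.42 in ZR-75-1 (SD, n = 3; log2 difference −1.13, adjusted p = 2.1e-10). UIMC1 differed by −0.92 (adjusted p = 3.9e-07), NSD1 by −0.39 (adjusted p = 0.0027), MXD3 by −0.59 (adjusted p = 0.027) and the sparsely counted RAB24 by −2.65 (adjusted p = 0.0067). Around FGFR1 (chromosome 8, 38400215 to 38468834, minus strand) the neighbours went both ways. PLPP5 was higher in ZR-75-1 by 0.51 (adjusted p = 4.6e-05), whereas DDHD2 was lower by −0.78 (adjusted p = 2.1e-05) and PLEKHA2 by −2.34 (adjusted p = 9.6e-12). ERBB4 (chromosome 2, 211375717 to 212538841, minus strand) was lower in ZR-75-1 while its neighbours IKZF2 and SPAG16 were higher, by 3.94 (adjusted p = 1.5e-18) and 2.48 (adjusted p = 7.7e-28). Of the other receptors' neighbours, STARD3 near ERBB2 differed by −0.81 (adjusted p = 2.3e-06). Near FGFR3, TACC3 differed by −0.74 (adjusted p = 1.9e-09), TMEM129 by −0.73 (adjusted p = 1.6e-05) and LETM1 by −0.465 (adjusted p = 0.00014). PA2G4 next to ERBB3 differed by −0.58 (adjusted p = 7e-11), whereas RPS26 near ERBB3 was higher in ZR-75-1 by 0.68 (adjusted p = 1.3e-10). Near FGFR2, NSMCE4A differed by −0.77 (adjusted p = 0.00057) and TACC2 by −0.85 (adjusted p = 0.0085), whereas SEC23IP was higher by 0.63 (adjusted p = 0.0006). LANCL2 near EGFR was higher by 0.85 (adjusted p = 0.0015). Copy number was not measured in these data, and its part in these differences was not tested.

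**Figure D2:**
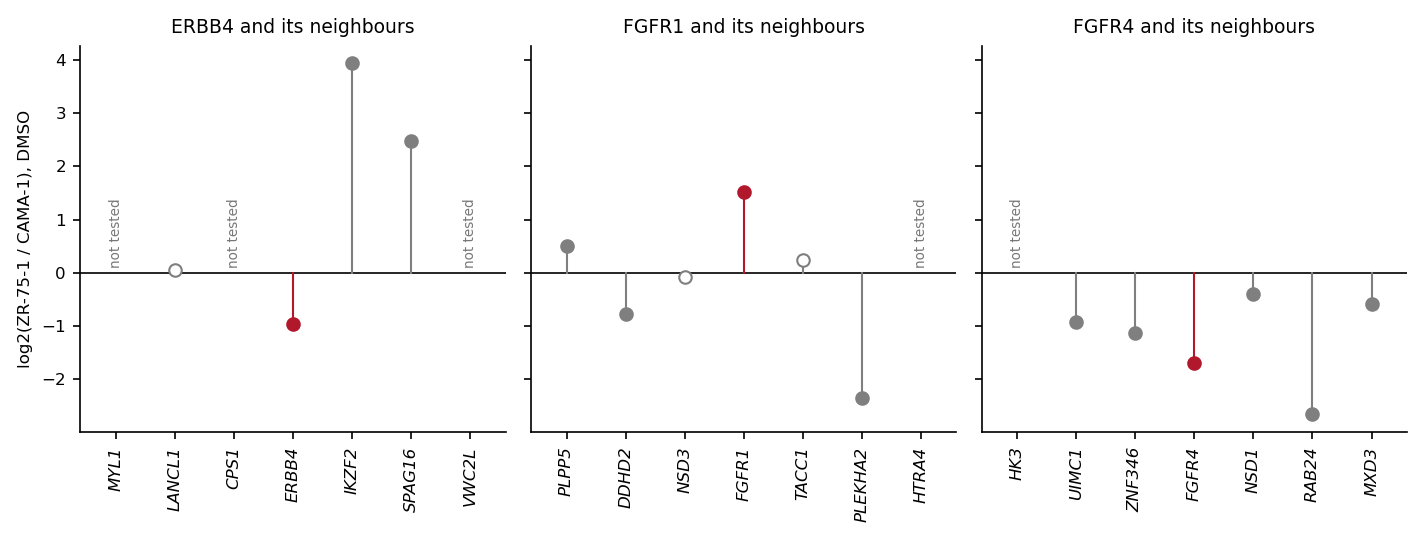
Log2 difference of ZR-75-1 over CAMA-1 in DMSO for ERBB4, FGFR1 and FGFR4 (red) and the 3 nearest non-overlapping protein-coding genes on each side (grey), in gene order along the chromosome. Filled points had an adjusted p under 0.05. Every tested gene around FGFR4 lies below 0, from −0.39 to −2.65, those around FGFR1 lie on both sides, and those around ERBB4 lie above 0 while ERBB4 itself lies below.

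In CAMA-1 the detected ERBB receptors rose together with both inhibitors. With abemaciclib, ERBB2 reached 132.5, 136.5 and 139 CPM, all above the 68.8 to 77.0 CPM of DMSO, with a log2 fold change of 0.88 (SE 0.0919, adjusted p = 1.3e-10). ERBB3 reached 227.5, 218 and 255 CPM, a log2 fold change of 0.56 (SE 0.0802, adjusted p = 2.1e-07). ERBB4, a neuregulin receptor with a kinase of its own, reached 57.8, 46.6 and 59.8 CPM, a log2 fold change of 0.72 (SE 0.134, adjusted p = 2.4e-05). For none of these receptors did the drug libraries overlap those of DMSO. The calls were 3 higher and 0 lower among 5 tested receptors, where 20.3% of the 11053 genes tested in this line were higher and 20.1% lower.

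Palbociclib gave rises of the same receptors in CAMA-1. ERBB2 lay at 171, 171.0 and 155 CPM, all above its DMSO libraries, with a log2 fold change of 1.17 (SE 0.0896, adjusted p = 2.6e-14). ERBB3 lay at 241, 244 and 243 CPM, with a log2 fold change of 0.61 (SE 0.0794, adjusted p = 2.9e-08), and ERBB4 at 55.4, 63.8 and 54.2 CPM, with a log2 fold change of 0.79 (SE 0.132, adjusted p = 4.3e-06). Among all genes, 18.4% were higher and 18.7% lower with palbociclib in this line. Both drugs are compared with the same 3 DMSO libraries, so these rises are not independent of each other. The 6 calls held in all alternatives that were run, with log2 fold changes of ERBB2 from 0.85 to 0.92 with abemaciclib.

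In ZR-75-1 the ERBB receptors did not move as a family. ERBB2 rose with abemaciclib, to 128, 133 and 112 CPM from 79.8 to 100.5 CPM in DMSO, with a log2 fold change of 0.46 (SE 0.102, adjusted p = 0.00021). With palbociclib it lay at 87.5, 75.7 and 79.2 CPM, overlapped DMSO and did not pass the test (−0.15, adjusted p = 0.3). ERBB3 did not rise with either drug. It fell with palbociclib, to 121, 110.1 and 122 CPM, a log2 fold change of −0.45 (SE 0.0869, adjusted p = 4.9e-05), and lay at 151, 149 and 141 CPM with abemaciclib, under every DMSO library but short of the threshold (−0.13, adjusted p = 0.24). ERBB4 did not pass with either drug, at 0.36 with a 95% interval of −0.06 to 0.78 for abemaciclib and 0.33 with −0.08 to 0.74 for palbociclib. EGFR, the classical receptor of EGF, had 2, 1 and 0 counts with abemaciclib, against 9, 14 and 3 in DMSO and 9, 3 and 9 with palbociclib. The DMSO mean was 2.57-fold above a floor of 3 counts per library with abemaciclib, although the lowest DMSO library had only 3 counts itself. Without the filter on low counts, EGFR had a log2 fold change of −2.84 in that comparison (adjusted p = 0.0092), a value that rests on very few counts.

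The promoters of ERBB2 and ERBB4, which rose in CAMA-1, and of FGFR4, which fell in ZR-75-1, are shown for comparison. They are the 250 bases before a RefSeq start on GRCh38.p14, written 5′ to 3′ on the strand of the gene, with GC boxes and ETS cores in capitals. ERBB2 is chr17:39687844-39688093 (plus strand), ERBB4 is chr2:212538803-212539052 (minus strand) and FGFR4 is chr5:177086665-177086914 (plus strand, the first of 2 starts in the RefSeq table).
ERBB2: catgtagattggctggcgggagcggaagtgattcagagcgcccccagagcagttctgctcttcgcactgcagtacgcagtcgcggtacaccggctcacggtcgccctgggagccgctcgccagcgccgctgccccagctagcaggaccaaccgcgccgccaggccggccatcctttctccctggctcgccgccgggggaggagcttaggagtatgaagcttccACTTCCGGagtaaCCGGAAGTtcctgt
ERBB4: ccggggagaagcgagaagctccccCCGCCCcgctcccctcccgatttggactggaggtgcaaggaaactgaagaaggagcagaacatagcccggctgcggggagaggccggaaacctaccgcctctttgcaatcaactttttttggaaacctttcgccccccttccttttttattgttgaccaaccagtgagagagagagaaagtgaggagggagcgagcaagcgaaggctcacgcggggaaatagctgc
FGFR4: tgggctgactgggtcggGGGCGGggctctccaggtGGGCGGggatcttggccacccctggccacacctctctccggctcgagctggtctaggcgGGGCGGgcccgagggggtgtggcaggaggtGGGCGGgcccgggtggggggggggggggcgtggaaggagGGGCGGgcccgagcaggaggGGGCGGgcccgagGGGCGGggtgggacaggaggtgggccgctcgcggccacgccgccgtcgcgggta
The second FGFR4 start, not shown, had no GC box and a GC content of 57.3% in its window. Motifs were searched on both strands of windows that also hold the 50 bases after the start. The letters were GGGCGG for the GC box bound by SP1 factors, CCGGAAGT for the ETS core, TTTCCCGC, TTTCGCGC, TTTGCCGC or TTTGGCGC for an E2F site and AGGTCA for the hexamer bound by oestrogen receptors, and no match overlapped another motif. The FGFR4 window held 7 GC boxes and the ERBB4 window 1, and 45.0% of 35116 promoters held at least 1. The ERBB2 window held 2 ETS cores and no GC box, where 4.14% of promoters held an ETS core. None of the 3 windows had an E2F site or the oestrogen receptor hexamer in these letters, which 3.31% and 13.8% of promoters had. Their GC content was 60.7% for ERBB2, 59.0% for ERBB4 and 78.7% for FGFR4, beside a median of 58.7%. Windows were read for 6 of the 8 receptors. ERBB3 had no start in the RefSeq table, and FGFR1 was left out by choice.

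FGF receptors fell or did not pass the test. FGFR4, a receptor for several FGFs, fell with both drugs in ZR-75-1. Its level was 32.4, 34.96 and 33.0 CPM with abemaciclib and 35.5, 32.4 and 29.6 CPM with palbociclib, all well under the 56.8 to 65.4 CPM of DMSO. Abemaciclib thus gave a log2 fold change of −0.88 (SE 0.137, adjusted p = 5e-07), and palbociclib gave −0.91 (SE 0.135, adjusted p = 2.5e-07). In CAMA-1, where it was 3.24-fold more abundant at baseline, FGFR4 fell with palbociclib, to 161, 157 and 141 CPM (−0.40, SE 0.0804, adjusted p = 7.5e-05). With abemaciclib it lay at 173, 177 and 196 CPM, overlapped DMSO and did not pass (−0.16, 95% interval −0.32 to 0.0037, adjusted p = 0.11).

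FGFR1, often amplified in hormone receptor-positive tumours, fell with abemaciclib in ZR-75-1, to 32.1, 41.9 and 27.5 CPM from 45.2 to 52.3 CPM, a log2 fold change of −0.56 (SE 0.147, adjusted p = 0.0017). With palbociclib the 3 libraries, at 40.5, 40.2 and 38.2 CPM, were also under those of DMSO, but the change of −0.34 did not pass (adjusted p = 0.069). FGFR1 in CAMA-1 overlapped DMSO with both drugs, at 0.28 for abemaciclib (95% interval −0.14 to 0.69) and 0.35 for palbociclib (−0.06 to 0.75). FGFR3 had values above DMSO in ZR-75-1, with 18.5, 17.0 and 14.2 CPM for abemaciclib and 17.6, 14.9 and 13.2 CPM for palbociclib. Neither passed the test (0.55, adjusted p = 0.07; 0.43, adjusted p = 0.18). FGFR2 had 18, 17 and 7 counts with abemaciclib in ZR-75-1 and 9, 9 and 11 with palbociclib, against 4, 4 and 9 in DMSO. Its groups overlapped, and without the filter the log2 fold change with abemaciclib was 1.39 (adjusted p = 0.051). In ZR-75-1, 1 receptor was higher and 2 were lower of 6 tested with abemaciclib, where 17.9% of 11017 genes were higher and 18.3% lower. With palbociclib 0 were higher and 2 lower, where 14.5% of genes were higher and 13.4% lower.

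**Figure D3:**
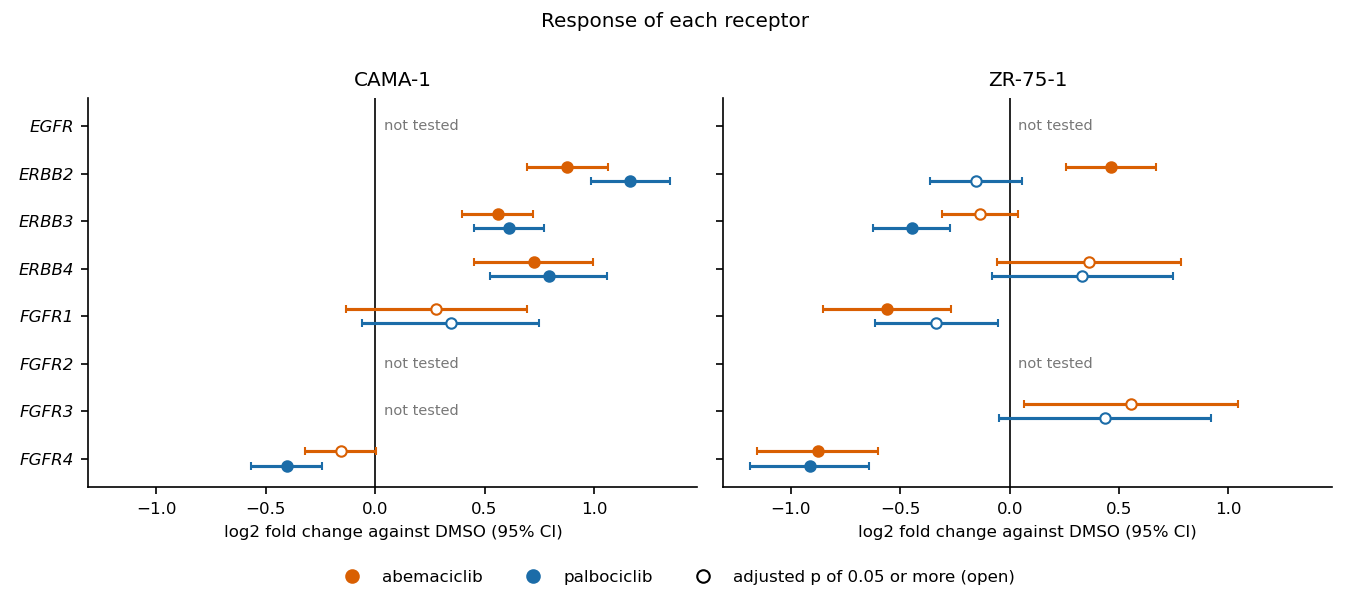
Log2 fold change against DMSO of each tested receptor in CAMA-1 (left) and ZR-75-1 (right), with abemaciclib in orange and palbociclib in blue. Bars are 95% confidence intervals and filled points had an adjusted p under 0.05. In CAMA-1 the ERBB receptors lie between 0.56 and 1.17, and FGFR4 lies below 0 with both drugs in both lines, filled in 3 of the 4 comparisons.

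Added up, the 8 receptors took more of the counts in CAMA-1 with either drug, and less in ZR-75-1 with palbociclib. Their summed level in CAMA-1 was 477 ± 11.0 CPM with DMSO, 632 ± 40.3 with abemaciclib and 644 ± 21.9 with palbociclib (SD, n = 3 each). The ERBB part of the sum rose from 54.5% ± 0.171 to 67.2% ± 0.954 and 72.4% ± 1.06, and the ratio of ERBB2 to FGFR4 went from 0.365 ± 0.0218 to 0.749 ± 0.0346 and 1.08 ± 0.0166. FGFR4 thereby left first place in CAMA-1. ERBB3 headed the order with both drugs on the CPM scale, and ERBB2 and FGFR4 overlapped with palbociclib. On the scale of CPM per exon kb FGFR4 stayed first with both drugs, at 36.8 and 32.7 beside 19.4 and 20.8 for ERBB3. In ZR-75-1 the sum was 394 ± 2.43 CPM with DMSO, 382 ± 27.5 with abemaciclib, where it overlapped DMSO, and 312 ± 13.2 with palbociclib. There the ERBB part was 68.4% ± 2.24, 76.8% ± 1.46 and 71.1% ± 1.47, and the ratio of ERBB2 to FGFR4 was 1.47 ± 0.277, 3.71 ± 0.298 and 2.49 ± 0.171. ERBB3 remained first on both scales in all ZR-75-1 groups. The sum did not overlap DMSO in 3 of these 4 comparisons, and neither did the ERBB part in 3, those of CAMA-1 and of abemaciclib in ZR-75-1, with an exact two-sided permutation p of 0.1 each time, the smallest that 3 against 3 libraries allow. With palbociclib in ZR-75-1 it overlapped (exact permutation p = 0.2).

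**Figure D4:**
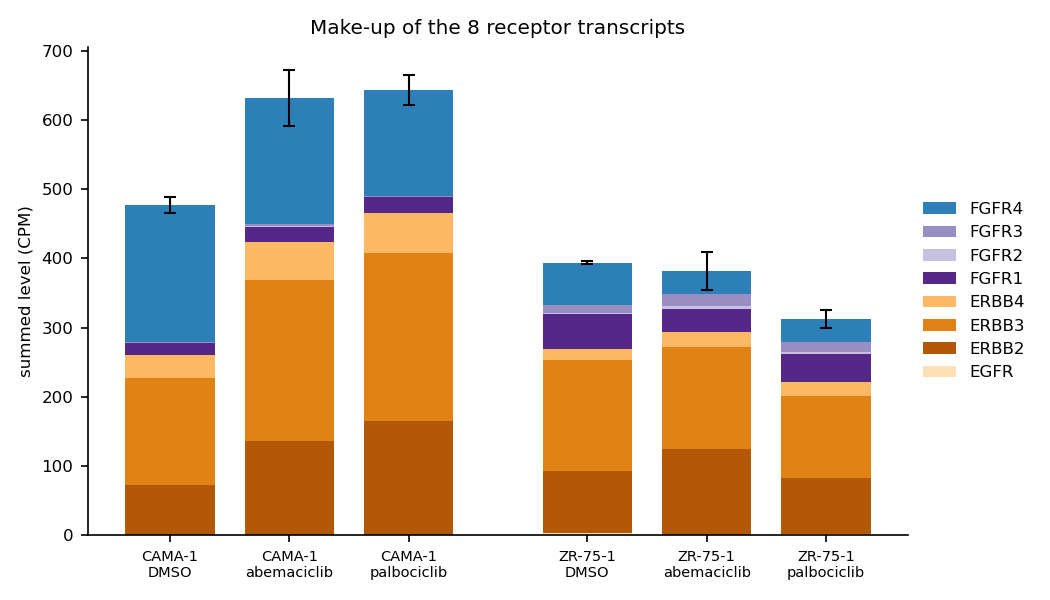
Summed level of the 8 receptor transcripts in each group, stacked by mean CPM of each receptor (n = 3). ERBB members are in brown and orange and FGFR members in purple and blue, and error bars are the SD of the sum. The ERBB stack in CAMA-1 grew from 260 CPM with DMSO to 424 and 466 CPM with the drugs.

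The response itself was then compared between the lines, by subtracting the CAMA-1 log2 fold change from that of ZR-75-1. With abemaciclib the difference was −0.72 for ERBB3 (SE 0.118, adjusted p = 3.2e-06), −0.74 for FGFR4 (SE 0.147, adjusted p = 0.0001), −0.86 for FGFR1 (SE 0.251, adjusted p = 0.0095) and −0.44 for ERBB2 (SE 0.139, adjusted p = 0.019). With palbociclib it was −1.35 for ERBB2 (SE 0.139, adjusted p = 1.1e-11), −1.09 for ERBB3 (SE 0.117, adjusted p = 4.4e-11), −0.71 for FGFR1 (SE 0.243, adjusted p = 0.029) and −0.54 for FGFR4 (SE 0.145, adjusted p = 0.0044). Of 6 tested receptors, 4 were called with each drug and all of these were lower in ZR-75-1. Among all 11987 genes, 8.19% had a higher and 10.0% a lower response in ZR-75-1 with abemaciclib, and 10.0% and 10.3% with palbociclib. For ERBB4 the difference was −0.38 (95% interval −0.86 to 0.10) and −0.49 (−0.96 to −0.015), with adjusted p of 0.3 and 0.15. FGFR3 had wide intervals, from −1.69 to 0.59 and from −1.13 to 1.48. The calls on ERBB2 with abemaciclib and on FGFR1 with either drug were lost when single libraries were left out, down to −0.29 for ERBB2 without ZR-75-1 DMSO replicate 2 (adjusted p = 0.19), −0.68 for FGFR1 with abemaciclib without CAMA-1 DMSO replicate 1 (adjusted p = 0.068) and −0.54 for FGFR1 with palbociclib without CAMA-1 palbociclib replicate 1 (adjusted p = 0.16).

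Abemaciclib and palbociclib, both ATP-competitive CDK4/6 inhibitors, were also set against each other at their shared dose. In CAMA-1 no receptor passed the test, where 0.796% of genes were higher and 1.53% lower with abemaciclib. ERBB2 came nearest, with a difference of −0.29 (95% interval −0.46 to −0.12, unadjusted p = 0.0015, adjusted p = 0.058), and the 2 drug groups did not overlap. It was called under upper-quartile scaling alone (−0.30, adjusted p = 0.049). FGFR4 differed by 0.25 (0.08 to 0.41, unadjusted p = 0.0044, adjusted p = 0.12), again without overlap. ERBB3 and ERBB4 differed by −0.05 (−0.21 to 0.10) and −0.07 (−0.32 to 0.18). In ZR-75-1, ERBB2 was higher with abemaciclib by 0.62 (SE 0.102, adjusted p = 7.9e-06) and ERBB3 by 0.31 (SE 0.0882, adjusted p = 0.01), where 5.23% of genes were higher and 7.94% lower. The ERBB3 call was lost without abemaciclib replicate 1 (0.29, adjusted p = 0.057) or without palbociclib replicate 2 (0.28, adjusted p = 0.059). FGFR4 differed by 0.04 in this line (−0.26 to 0.33).

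Ligands for these receptors were read from the same libraries. Of 11 ERBB ligands, 4 could be tested in CAMA-1, and 3 rose with each drug, where 20.3% and 18.4% of all genes did. AREG, which encodes the EGFR ligand amphiregulin, rose from 16.6 ± 1.70 CPM (SD, n = 3) to 52.6 ± 1.25 for abemaciclib and 44.6 ± 8.11 for palbociclib (log2 fold change 1.64, adjusted p = 1.3e-11, and 1.42, adjusted p = 7.9e-10). BTC (betacellulin) rose by 2.02 and 1.57 (adjusted p = 0.0021 and 0.022) from 4, 7 and 2 counts, and the palbociclib call was lost with DESeq2 (adjusted p = 0.068) and when any of 3 libraries was left out, down to 1.07 without CAMA-1 DMSO replicate 3 (adjusted p = 0.16). HBEGF rose by 1.46 and 1.36 (adjusted p = 0.00055 and 0.0012). In ZR-75-1 AREG began higher, at 74.0 ± 6.57 CPM, and fell to 49.1 ± 7.87 and 38.7 ± 3.84 (−0.59 and −0.94, adjusted p = 0.00014 and 4.8e-08). TGFA rose by 1.27 with abemaciclib (adjusted p = 0.026), a call lost with DESeq2 (adjusted p = 0.085) and without ZR-75-1 abemaciclib replicate 1 (1.07, adjusted p = 0.14), among other libraries. Between the lines the AREG response differed by −2.26 for abemaciclib (adjusted p = 6.9e-14), and for palbociclib by −2.38 (adjusted p = 1.2e-14). EGFR itself had no count in CAMA-1, as given above. NRG1, a ligand of ERBB3 and ERBB4, had at most 1 count in any library. Among the 22 FGF genes, 2 could be tested in each line. FGF18 had 0, 1 and 0 counts in CAMA-1 DMSO, 26, 30 and 24 with abemaciclib and 28, 13 and 5 with palbociclib. The means of the drug groups were 10.3-fold and 4.58-fold above the floor of 3 counts per library. FGF13, an intracellular member of the family, fell by 1.73 with abemaciclib in ZR-75-1 (adjusted p = 0.0069).

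Syndecans rose in CAMA-1 and were mixed in ZR-75-1. They carry heparan sulphate chains that help FGFs bind their receptors, and all 4 of them rose with each drug in CAMA-1, out of 5 tested co-receptors, whose median log2 fold changes were 1.102 and 1.06, where 20.3% and 18.4% of all genes were higher. The fifth, FGFRL1, an FGF receptor without a kinase, had −0.39 and −0.28 and did not pass (adjusted p = 0.2 and 0.36). SDC1 rose from 183 ± 11.9 CPM to 503 ± 43.3 for abemaciclib (1.43, adjusted p = 8.9e-20) and 494 ± 28.6 for palbociclib (1.40, adjusted p = 2.1e-19). The rises of SDC2 were lost without CAMA-1 DMSO replicate 3 (0.70 and 0.81, adjusted p = 0.15 and 0.086). In ZR-75-1 SDC1 was much lower at baseline, at 15.4 ± 2.76 CPM, and fell with abemaciclib to 4.03 ± 0.265 (−1.93, adjusted p = 7.8e-07), while SDC3 rose by 1.76 (adjusted p = 0.0016). With palbociclib 0 of the 5 were called in this line, where 14.5% of all genes were higher and 13.4% lower. Between the lines the SDC1 response differed by −3.39 for abemaciclib and −1.86 for palbociclib (adjusted p = 7.5e-18 and 2.7e-11).

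Downstream of the receptors, most adaptors and kinases did not pass the test in either line. Among 11 tested adaptors, GRB7, which binds ERBB2 and lies 7.5 kb from it, fell with both drugs in ZR-75-1 (−1.12 and −0.83, adjusted p = 4.8e-05 and 0.0017) and with palbociclib in CAMA-1 (−0.44, adjusted p = 0.037). That last call was lost with DESeq2 (adjusted p = 0.12) and without most single libraries, down to −0.30 without palbociclib replicate 3 (adjusted p = 0.21). ERBB2 rose in 2 of these 3 comparisons, so the neighbouring genes did not move together there. FRS2, the docking protein of FGF receptors, rose with abemaciclib in ZR-75-1 (0.52, adjusted p = 8e-05) and in CAMA-1 (0.39, adjusted p = 0.029). PTPN11, the phosphatase SHP2, rose with each drug in CAMA-1 (0.36 and 0.43, adjusted p = 0.0065 and 0.001). Changes in PLCG1, GRB2 and SOS1 passed the test in single lines and were lost with DESeq2 and without single libraries. In the RAS–MAPK list HRAS fell in CAMA-1 with either drug (−0.93 and −1.09, adjusted p = 1.3e-06 and 5.8e-08) and with abemaciclib in ZR-75-1 (−0.91, adjusted p = 0.0051). BRAF fell with palbociclib in ZR-75-1 (−0.86, adjusted p = 0.0064), and MAPK3, which encodes ERK1, fell with both in ZR-75-1 (−0.45 and −0.43, adjusted p = 0.0004 and 0.00086). In the PI3K–AKT list PIK3R1, a regulatory subunit of PI3K, rose in all 4 comparisons. CAMA-1 had log2 values of 1.57 and 1.12 (adjusted p = 1e-12 and 1.5e-08), and ZR-75-1 had 0.66 and 0.58 (adjusted p = 0.00011 and 0.00091). PIK3R3, another such subunit, rose by 1.02 and 0.88 in CAMA-1 (adjusted p = 7.9e-12 and 4.4e-10). PDPK1, the kinase that activates AKT, rose in all 4 comparisons by 0.31 to 0.53, and the smallest of these was lost with DESeq2 (adjusted p = 0.068) and without single libraries, with 0.27 left without ZR-75-1 palbociclib replicate 1 (adjusted p = 0.075).

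Negative regulators and transcripts that ERK is known to induce were read last. In CAMA-1, 3 of 14 tested negative regulators rose with each drug and none fell, a share of rises near the 20.3% and 18.4% of all genes. IL17RD was among them with both drugs (1.93 and 1.87, adjusted p = 0.0011 and 0.0015). DUSP4, a phosphatase of ERK, rose there with palbociclib (2.61, adjusted p = 3e-05), from 5, 3 and 4 counts to 34, 27 and 18. In ZR-75-1, 3 rose and 2 fell with abemaciclib, and 2 rose and 2 fell with palbociclib. ERRFI1, an inhibitor of ERBB kinases, rose there by 1.76 with abemaciclib (adjusted p = 0.0035), and RNF41, which promotes the degradation of ERBB3, by 0.56 (adjusted p = 0.00063). LRIG1, which lowers the level of ERBB receptors, rose in ZR-75-1 by 0.42 and 1.04 (adjusted p = 0.031 and 1.2e-07), and SPRED1, a RAS inhibitor, fell by 0.45 and 1.2 (adjusted p = 0.028 and 1.8e-07). Both abemaciclib calls were lost with DESeq2 (adjusted p = 0.092 and 0.13) and without single libraries, with 0.36 for LRIG1 without ZR-75-1 DMSO replicate 3 (adjusted p = 0.12). DUSP4 went both ways in ZR-75-1, from 162 ± 11.8 CPM to 133 ± 5.52 for abemaciclib (−0.29, adjusted p = 0.0045) and 251 ± 3.10 for palbociclib (0.63, adjusted p = 6.9e-09). Of the 7 ERK-induced transcripts, only EGR1 and IER3 could be tested in CAMA-1, so they do not stand for the list. EGR1 rose there by 1.51 and 2.26 (adjusted p = 1.3e-12 and 2.8e-18) and IER3 by 1.12 and 1.67 (adjusted p = 1.6e-19 and 4.6e-25). ETV1, ETV4, ETV5, PHLDA1 and FOSL1 had at most 7 counts in any CAMA-1 library. In ZR-75-1 IER3 lay at 163 ± 30.3 CPM with DMSO, 166 ± 24.2 with abemaciclib and 201 ± 5.48 with palbociclib. PHLDA1 lay at 5.79 ± 1.85, 8.24 ± 2.00 and 7.08 ± 3.28 CPM there. EGR1 in ZR-75-1 had a wide DMSO range, from 59.2 to 237 CPM, which both drug groups overlapped, although both passed the test (0.82 and −0.98, adjusted p = 0.0001 and 5e-05). Over all 99 genes of the 8 lists, 57 were tested in CAMA-1 and 56 in ZR-75-1. With abemaciclib and palbociclib, 20 and 19 were higher and 2 and 3 lower in CAMA-1, and 11 and 6 were higher and 10 and 9 lower in ZR-75-1. All-gene shares were 20.3% and 18.4% higher and 20.1% and 18.7% lower in CAMA-1, and 17.9% and 14.5% higher and 18.3% and 13.4% lower in ZR-75-1, so the ZR-75-1 counts were near the background. For CAMA-1 the medians were 0.22 and 0.33, and for ZR-75-1 they were 0.046 and 0.0033, beside −0.0080 to 0.010 over all genes in these comparisons.

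**Figure D5:**
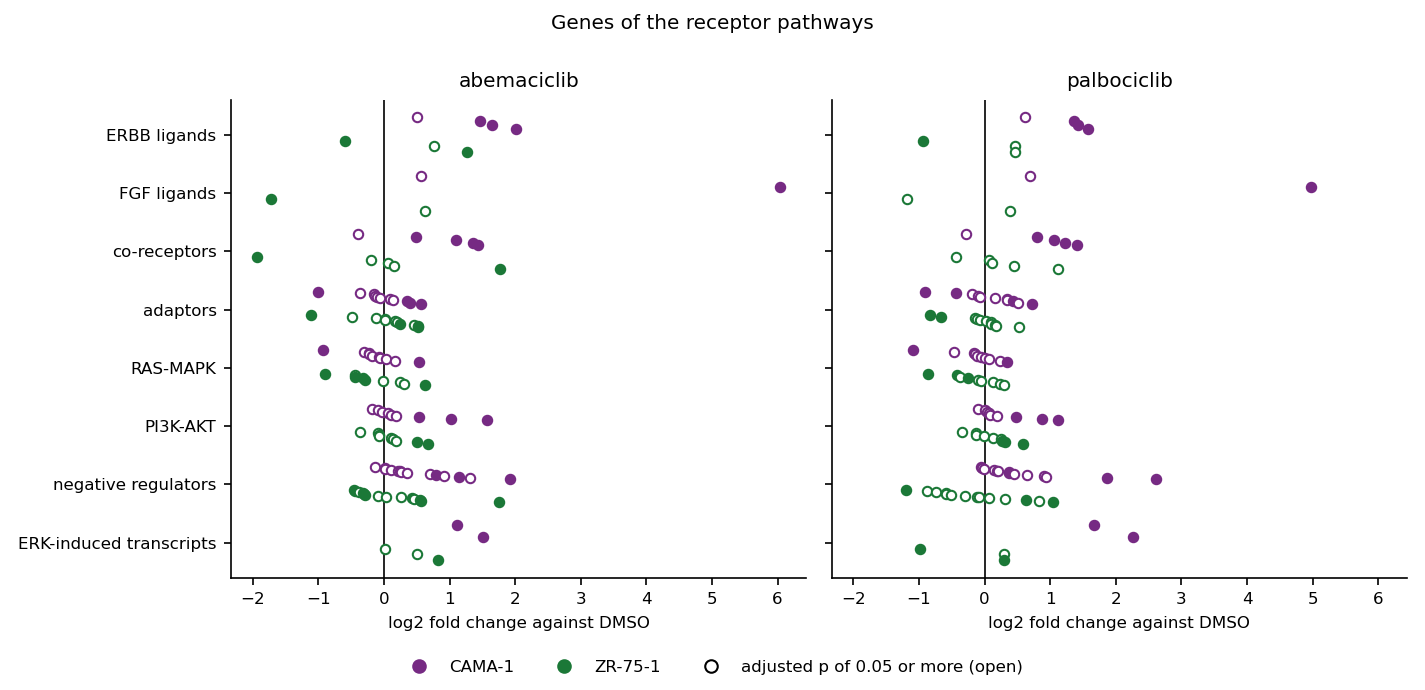
Log2 fold change against DMSO of the tested genes in the 8 pathway lists, with abemaciclib on the left and palbociclib on the right. Each point is a gene, purple for CAMA-1 and green for ZR-75-1, filled where the adjusted p was under 0.05. The 4 filled syndecans of CAMA-1 lie right of 0 in both panels, and FGF18 of CAMA-1 stands far right at fitted values that depend on its near-empty DMSO libraries.

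Overlapping genes limit what the counts of some receptors can show, because the strand setting of the counting was not given in the sources used here. ERBB2 (chromosome 17, 39687914 to 39730426, plus strand) shares its 3′ end with MIEN1 on the opposite strand. MIEN1 fell in CAMA-1 with both drugs (−0.69 and −0.60, adjusted p = 6.8e-05 and 0.00032), where ERBB2 rose, and with abemaciclib in ZR-75-1 (−0.32, adjusted p = 0.02), where ERBB2 also rose. With palbociclib in ZR-75-1 MIEN1 was not called (−0.14, adjusted p = 0.38). Its levels were 65.6 ± 6.63 CPM in CAMA-1 DMSO and 80.1 ± 6.02 in ZR-75-1 DMSO. It was thus higher in ZR-75-1 at baseline by 0.29 (adjusted p = 0.027), in the same direction as ERBB2, at 0.31. Whether shared reads had a part in the ERBB2 values was not tested. FGFR1 shares its 3′ end with LETM2, which had group means of 1.94 to 4.90 CPM and was not called in any comparison. ERBB3 (chromosome 12, 56076799 to 56103505, plus strand) shares its 3′ end on the same strand with an unnamed gene that was at 0 in all libraries.

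Across the 18 libraries, centred within each line so that the baseline difference is removed, ERBB2 and ERBB3 had a Pearson's r of 0.806 and ERBB2 and ERBB4 of 0.708, while ERBB4 and FGFR4 had −0.532. These values describe libraries that share their treatment groups. Among 9586 genes searched, the closest to ERBB2 were CPE (r = 0.957), PTPRF (0.956) and OPN3 (0.951), and the closest to ERBB3 were PTGFRN (0.933), CLDN4 (0.918) and DBI (0.912). UBLCP1 (0.914), ZMYND8 (0.91) and MED13L (0.905) were closest to ERBB4. FGFR4 was most like SLC3A2 (0.935), ID2 (0.929) and SLC7A11 (0.928), of which SLC3A2 and SLC7A11 encode the subunits of the cystine–glutamate exchanger. FGFR1 had weaker partners, with CORO1B (0.825), SHPK (0.804) and CFL1 (0.781).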

How the data were processed

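RNA from 18 samples was sequenced by the authors with a Lexogen QuantSeq 3′ kit, which reads mainly the end of each transcript. The deposited values are raw read counts per gene: the authors trimmed adapters with BBDuk, aligned reads with STAR 2.7.5b to hg38 and counted them with featureCounts 2.0.1. Strand setting, treatment of multiply aligned reads and molecular identifiers are not given in the sources used here, and the labels and the methods name different kits of that series. Floors cover counting error only, whereas the intervals of fold changes include the spread between replicates. All 18 columns were matched by title.

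Each line was fitted over its 9 libraries with edgeR 4.0.16 in R 4.3.3 (filterByExpr, TMM, quasi-likelihood F test, Benjamini–Hochberg over all genes tested), which left 11053 genes for CAMA-1 and 11017 for ZR-75-1. Comparisons between lines used 1 fit over 18 libraries and 11987 genes. The biological coefficient of variation was 8.12% to 8.30%. The study used DESeq2, run here as an alternative (1.42.0), beside other scalings, no filter, a replicate block and leaving out each library. Scripts were tested on simulated counts. The receptors and pathway lists were chosen with earlier results of these data known. Named were all receptors, the 3 most similar genes and the called genes among 3 neighbours on each side. Per list and drug comparison, genes were taken from the 2 largest rises and falls among called genes with a mean of 10 counts and no overlap. Not every gene that meets this rule is given. Added to these were HBEGF, NRG1, FGF13, FGFRL1, SDC2, SDC4 and the genes at the receptors' ends. Coordinates are from GENCODE release 44 on GRCh38, and promoters from RefSeq.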

Additional observations from a re-analysis of the deposited data

Results flagged for a closer look

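For 4 receptors the response differed between the lines by the test of the difference itself, with both drugs, as ZR-75-1 minus CAMA-1 on the log2 scale. ERBB2 differed by −0.44 with abemaciclib and −1.35 with palbociclib, ERBB3 by −0.72 and −1.09, FGFR1 by −0.86 and −0.71, and FGFR4 by −0.74 and −0.54. The calls on ERBB2 with abemaciclib and on FGFR1 with either drug were lost when certain single libraries were left out. ERBB2 and ERBB3 rose in CAMA-1, and ERBB3 had negative values in ZR-75-1. FGFR4 fell in both lines with palbociclib, and further in ZR-75-1. No group had more than 3 libraries, so single libraries were not screened as outliers.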

How the results depend on the processing

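Over the 51 receptor values with a test, 717 values were computed under other settings. Of these, 696 kept their direction and their side of the threshold, 20 lost and 1 gained a call, and 0 reversed. All 20 lost calls came from leaving out a library. Upper-quartile scaling raised the receptors called between the drugs in CAMA-1 from 0 to 1. DESeq2 lowered the pathway genes called from 4 to 1 in that comparison and from 15 to 9 for palbociclib in ZR-75-1. Over all genes, calls between the drugs went from 1451 to 898 with DESeq2 in ZR-75-1, and from 257 to between 151 and 197 in CAMA-1 when single libraries were left out. Leaving out single libraries gave 2 to 2 pathway genes between the drugs in CAMA-1, 1 to 2 receptors between the drugs in ZR-75-1 and 2 to 4 receptors in the abemaciclib difference between the lines. Without the filter on low counts, EGFR was also called with abemaciclib in ZR-75-1 (−2.84), and EGFR and FGFR2 between the lines (6.17 and 3.04), fitted values that depend on libraries near 0. Ordered by CPM per exon kb, 5 receptors kept their place with palbociclib in CAMA-1, 4 with DMSO, 5 with abemaciclib and 4 with palbociclib in ZR-75-1. The cause of these shifts was not tested.

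With the replicate number as a block, 3 and 4 receptors were called in CAMA-1 against DMSO, 3 and 2 in ZR-75-1 and 5 between the DMSO groups, and no call on a receptor changed. No shared effect of the replicate number was seen. Deviations of same-numbered libraries correlated at −0.056 to 0.0255 over 18 pairs, and 0 of 18 libraries were closest to their own number in both other groups. Whether same-numbered cultures were set up together is not given in the labels. At these depths changes in EGFR, FGFR2 and, in CAMA-1, FGFR3 were not detectable unless large.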

Other observations

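The genes given here were chosen after their values were seen. NRAS and DUSP4 had fitted differences of −5.68 and 7.10 between the lines at baseline (log2 of ZR-75-1 over CAMA-1, adjusted p = 3e-25 and 3.8e-40). Each was near-empty in the line where it was low, so the size of these values depends on few counts. They are not ranked against the receptors. NRAS had 203, 172 and 158 counts in CAMA-1 DMSO and 3, 5 and 1 in ZR-75-1 DMSO, and 0 in the 3 abemaciclib libraries of ZR-75-1. HRAS was also lower in ZR-75-1, with a log2 difference of −1.89 (adjusted p = 2.4e-14). DUSP4 had 495, 493 and 506 counts in ZR-75-1 DMSO and 5, 3 and 4 in CAMA-1 DMSO. EGF, the ligand that names the EGFR family, had 0 counts in CAMA-1 DMSO. Its mean in ZR-75-1 DMSO was 4.29-fold above the floor of 3 counts per library.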
